A study of Mus musculus with 6 samples.

Results

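A list of 10 genes of squamous, cornifying epithelium was followed through enamel organ RNA from mice labelled as a double knockout of Stim1 and Stim2 (DKO) and from wild-type mice (WT). The members include the transglutaminases Tgm1, Tgm2 and Tgm3, the calmodulin-like gene Calm4, and Nccrp1, which encodes a protein with an F-box-associated domain. The others are Dynap, which encodes a membrane protein, the secreted proteins Krtdap and Sbsn, the 14-3-3 protein Sfn and the desmosomal cadherin Dsg1a. These 10 of the 46603 genes in the count tables form a named list of oral or cornifying genes, selected on their counts in these same DKO and WT libraries as low in DKO. Their difference between the genotypes is therefore given as a description, without a test. The name of the list held for part of it: in 5 of the 10 genes every DKO library lay below every WT library, as in 11.8% of all tested genes, and in the other 5 the groups overlapped, with slightly higher DKO means for Tgm2 and Sfn. In Tgm3, Calm4, Nccrp1 and Dynap the DKO mean was at least 10-fold lower, and these 4 are called the 10-fold lower genes.

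The study sequenced total RNA of primary enamel organ cells from mouse lower incisors, the epithelium whose ameloblasts lay down and mature tooth enamel. The DKO group held 3 libraries (replicates 1, 3 and 4) with the genotype Stim1/2 Knock out, and the WT group held 3 libraries (replicates 1, 2 and 3) of wild-type mice, all on the C57BL/6 strain. The proteins STIM1 and STIM2 sense an emptied calcium store in the endoplasmic reticulum and then open channels of the plasma membrane, a process named store-operated calcium entry. The labels used here name no Cre line, promoter, age or sex, and they do not say whether each library is a separate animal, so a p-value here reflects no more than the spread among these 6 libraries.

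Cornification is the final step of squamous differentiation, in which a keratinocyte replaces its membrane with a protein envelope. Calcium-dependent transglutaminases crosslink precursors such as involucrin, loricrin and small proline-rich proteins into that envelope, while desmosomes and keratins hold the layers together. A rise in calcium is a classical trigger of this programme in cultured keratinocytes. Enamel organ epithelium is not a cornifying tissue, but it arises from oral epithelium in the embryo.

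Total counts ran from 18609759 to 22829411 per library. Stim1 averaged 125 ± 18.1 CPM in DKO and 422 ± 65.1 CPM in WT (SD, n = 3 each), where CPM is the count per 1000000 counts after TMM scaling. Its log2 fold change (log2FC, DKO over WT) was -1.75 (SE 0.15, adjusted p = 0.00553). Stim2 averaged 122 ± 15.8 CPM in DKO and 261 ± 42.6 CPM in WT, with a log2FC of -1.10 (SE 0.14, adjusted p = 0.018), a call that ended without any 1 DKO library or without WT 3 (adjusted p of 0.0574 to 0.0987), with a term for Xist (0.0557) and with limma on unfiltered FPKM (0.126). Every DKO library lay below every WT library for both genes, the direction that the labels give. Part of both transcripts remained, with a ratio of the DKO mean to the WT mean of 0.296 for Stim1 and 0.468 for Stim2.

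The promoters of Tgm3 and Calm4, which were far lower in DKO, are set beside those of 3 members whose groups overlapped, as 300-base windows that run from 250 bases before to 50 bases after the annotated start. Windows from RefSeq on GRCm38.p6 were searched for 6 of the 10 members. Dynap and Dsg1a were left out by choice before the search, and Nccrp1 and Tgm2 were not searched either. The windows are Tgm3 at chr2:130012090-130012389 on the plus strand, Calm4 at chr13:3837507-3837806 on the plus strand, Sbsn at chr7:30751221-30751520 on the plus strand, Krtdap at chr7:30787655-30787954 on the plus strand and Sfn at chr4:133602119-133602418 on the minus strand. Each reads 5′ to 3′ on the gene's own strand, and capitals mark the motif matches.
Tgm3: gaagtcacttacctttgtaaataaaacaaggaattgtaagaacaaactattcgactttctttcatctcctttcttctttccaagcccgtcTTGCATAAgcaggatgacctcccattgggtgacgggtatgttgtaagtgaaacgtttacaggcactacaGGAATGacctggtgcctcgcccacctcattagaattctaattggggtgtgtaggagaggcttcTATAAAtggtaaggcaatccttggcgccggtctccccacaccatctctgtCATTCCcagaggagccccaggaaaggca
Calm4: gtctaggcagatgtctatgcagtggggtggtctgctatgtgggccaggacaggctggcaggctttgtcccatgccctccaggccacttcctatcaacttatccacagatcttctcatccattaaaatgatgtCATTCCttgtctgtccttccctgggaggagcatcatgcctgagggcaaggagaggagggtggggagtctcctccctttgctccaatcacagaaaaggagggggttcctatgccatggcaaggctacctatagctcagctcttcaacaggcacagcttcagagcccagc
Sbsn: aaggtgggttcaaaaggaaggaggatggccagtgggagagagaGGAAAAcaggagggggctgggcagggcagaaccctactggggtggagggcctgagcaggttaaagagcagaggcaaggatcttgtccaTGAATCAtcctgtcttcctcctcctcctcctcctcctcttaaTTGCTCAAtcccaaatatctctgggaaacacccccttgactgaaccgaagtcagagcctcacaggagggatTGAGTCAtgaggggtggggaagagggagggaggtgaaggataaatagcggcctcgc
Krtdap: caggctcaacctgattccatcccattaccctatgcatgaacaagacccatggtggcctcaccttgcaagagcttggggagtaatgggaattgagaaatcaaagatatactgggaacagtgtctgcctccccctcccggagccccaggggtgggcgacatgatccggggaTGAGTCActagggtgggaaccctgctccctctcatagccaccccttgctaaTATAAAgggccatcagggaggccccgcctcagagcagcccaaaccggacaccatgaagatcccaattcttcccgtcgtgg
Sfn: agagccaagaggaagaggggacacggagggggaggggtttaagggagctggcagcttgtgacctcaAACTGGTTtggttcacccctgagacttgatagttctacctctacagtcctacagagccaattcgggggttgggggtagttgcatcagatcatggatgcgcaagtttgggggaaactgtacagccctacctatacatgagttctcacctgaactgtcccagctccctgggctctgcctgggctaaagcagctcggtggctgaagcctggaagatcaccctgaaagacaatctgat
Motifs were searched on both strands, with N for any base. The AP-1 motif was spelled TGANTCA, the cyclic AMP response element was TGACGTCA and the grainyhead-like (GRHL) motif was AACNGGTT. The promoter box called TATA was searched as TATAAA, the motif of TEAD factors as GGAATG, that of C/EBP factors as TTGCNNAA and the core of NFAT sites as GGAAAA. No matches overlapped in these windows. The Tgm3 window held TATA with its first base 28 bases before the start (-28), TEAD at -91 and 23, and C/EBP at -160. The Calm4 window held only TEAD, at -118. The Sbsn window held AP-1 at -119 and -6, C/EBP at -77 and the NFAT core at -207. The Krtdap window held AP-1 at -81 and TATA at -30, and the Sfn window held GRHL at -184. Tgm1, whose groups also overlapped, has 2 windows that were searched but are not printed. Window 1 of Tgm1 held the NFAT core at -170 and C/EBP at 32, and window 2 held the NFAT core at -66. Among all 32851 RefSeq windows of this length, 7.81% held AP-1, 1.79% the cyclic AMP response element, 2.09% GRHL, 13.6% TATA, 14.7% TEAD, 10.8% C/EBP and 23.4% the NFAT core. Tgm3 and Calm4 shared TEAD alone, and no motif was common to all 5 printed windows. A match is a description of the letters and not a bound site.

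Tgm3 had the most uneven pattern of the transglutaminases. It encodes the epidermal-type transglutaminase, a zymogen that proteases activate in the upper layers of squamous epithelium and in hair follicles. Tgm3 (ENSMUSG00000027401, chromosome 2, 130012349 to 130050399, plus strand) had 2.91, 0.612 and 2.89 CPM in DKO 1, 3 and 4, against 85.0, 7.56 and 136 CPM in WT 1, 2 and 3. All DKO libraries lay below all WT libraries, but WT 2 stood close to the DKO libraries, at 6.86% of the mean of WT 1 and WT 3. The means were 2.14 ± 1.32 CPM in DKO and 76.0 ± 64.5 CPM in WT, so the DKO mean was 35.6-fold lower, with a log2FC of -5.15 (SE 1.05). Without WT 3 the log2FC was -4.43. Set against WT 2 alone, the DKO mean was 28.3% of the WT level. In bulk RNA, fewer cells of a type and less RNA per cell cannot be told apart, here and for every gene that follows.

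Tgm1 encodes the membrane-anchored transglutaminase of keratinocytes, whose loss causes lamellar ichthyosis in humans. Tgm1 (ENSMUSG00000022218, chromosome 14, 55700009 to 55713926, minus strand) had 12.5, 5.2 and 6.15 CPM in DKO 1, 3 and 4, against 14.8, 11.2 and 15.6 CPM in WT 1, 2 and 3. DKO 1 lay within the WT range and the other DKO libraries below it, and the log2FC was -0.80 (SE 0.32), or -1.28 without DKO 1. Tgm2 encodes tissue transglutaminase, an enzyme of many cell types that is not specific to squamous epithelium. Tgm2 (ENSMUSG00000037820, chromosome 2, 158116402 to 158146436, minus strand) had 36.9, 27.9 and 27.8 CPM in DKO 1, 3 and 4, against 27.7, 17.8 and 30.6 CPM in WT 1, 2 and 3. The groups overlapped, the DKO mean was the higher one, and the log2FC was 0.28 (SE 0.21).

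Levels per transcript length show how the balance of the 3 enzymes differed. On the FPKM scale (fragments per kilobase, scaled to the size of the library), Tgm2 had 14.6, 9.41 and 10.8 in DKO 1, 3 and 4, against 10.2, 6.66 and 11.2 in WT 1, 2 and 3. Tgm3 had 0.682, 0.136 and 0.666 FPKM in DKO, against 19.6, 1.70 and 31.3 FPKM in WT. Of the summed FPKM of the 3 genes, Tgm3 made up 3.46%, 1.20% and 4.89% in DKO 1, 3 and 4, against 56.1%, 13.9% and 65.2% in WT 1, 2 and 3. Tgm3 was thus the most abundant of the 3 in WT 1 and WT 3, while Tgm2 was the most abundant in WT 2 and in every DKO library, with 74.0% to 83.4% of the sum in DKO. Tgm1 held 15.4% to 22.5% of the sum in DKO and 11.5% to 31.6% in WT. Of the other family members, F13a1, the catalytic subunit of clotting factor XIII, was the only one tested, with a log2FC of 0.52 (SE 0.55, adjusted p = 0.669).

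**Figure D1:**
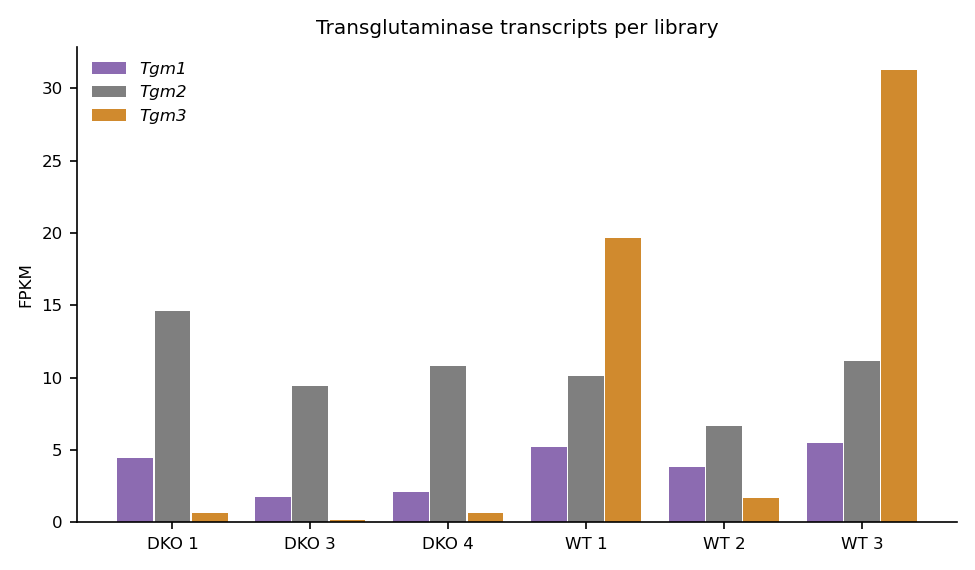
Level of Tgm1, Tgm2 and Tgm3 in FPKM on a linear axis from 0, with 1 bar per library, DKO libraries left of WT libraries. Tgm3 reached 19.6 and 31.3 FPKM in WT 1 and WT 3 but 1.70 FPKM in WT 2 and at most 0.682 FPKM in DKO, while Tgm2 lay between 6.66 and 14.6 FPKM in all 6 libraries.

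Calm4 encodes a calmodulin-like EF-hand protein of mouse epidermis. Calm4 (ENSMUSG00000033765, chromosome 13, 3837757 to 3838673, plus strand) was rare, with 1, 1 and 8 counts in DKO 1, 3 and 4, against 146, 21 and 231 counts in WT 1, 2 and 3. The groups did not overlap, and DKO 4 carried most of the DKO counts. As CPM the values were 0.0502, 0.0510 and 0.428 in DKO and 6.19, 1.02 and 10.1 in WT, a DKO mean 32.7-fold lower with a log2FC of -5.02 (SE 1.02). Without DKO 4 the log2FC was -6.68, and without WT 3 it was -4.34. The 10 DKO counts pooled came to 2.90% of the pooled WT level after scaling, with an exact 95% interval of 1.38% to 5.38% that covers counting error only. Its near neighbour in sequence, Calm5, shared 85.9% of bases over 615 bases of the 917-base transcript and had 0 counts in all libraries.

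Calm2, a gene of the ubiquitous calcium sensor calmodulin, had a log2FC of -0.05 (SE 0.08, adjusted p = 0.782). Of the 4 tested relatives of Calm4, edgeR's quasi-likelihood test called 0 at an adjusted p below 0.05, with a median log2FC of 0.01. The 1 at an unadjusted p below 0.05 was Calml3, the calmodulin-like protein of epithelia, which DESeq2 also called and limma on FPKM did not (log2FC -1.01, SE 0.26, adjusted p = 0.112 with edgeR).

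Nccrp1 was the most abundant of the 10-fold lower genes. It encodes a protein with an F-box-associated domain, named after a receptor of fish cytotoxic cells and found in squamous epithelia. Nccrp1 (ENSMUSG00000047586, chromosome 7, 28543596 to 28547254, minus strand) had 26.2, 2.65 and 9.15 CPM in DKO 1, 3 and 4, against 208, 43.8 and 169 CPM in WT 1, 2 and 3. Every DKO library lay below every WT library, although the DKO libraries themselves spanned a 9.88-fold range. The means were 12.7 ± 12.2 CPM in DKO and 140.2 ± 85.7 CPM in WT, 11.1-fold lower in DKO, with a log2FC of -3.47 (SE 0.81). Without DKO 1, the highest of its group, the log2FC was -4.57. Of the 5 tested F-box-associated relatives, edgeR called 0 (1 at an unadjusted p below 0.05), as did DESeq2 and limma on FPKM, with a median log2FC of 0.13. Fbxo6 had a log2FC of 0.13 (SE 0.10, adjusted p = 0.558). Fbxo2, which binds glycoproteins for degradation, had one of 0.003 (SE 0.24, adjusted p = 0.996), with a sign that turned under 4 alternatives, total-count scaling and 3 omitted libraries.

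Dynap encodes a membrane protein named for its association with dynactin, the partner complex of the dynein motor. Dynap (ENSMUSG00000024512, chromosome 18, minus strand) had 0.702, 0.153 and 1.12 CPM in DKO 1, 3 and 4, against 32.2, 5.19 and 34.9 CPM in WT 1, 2 and 3. The lowest WT library, WT 2, was 7.86-fold above the DKO mean, the widest such gap among the 10-fold lower genes. The DKO libraries held 14, 3 and 21 counts, against 758, 107 and 800 counts in the WT libraries. The mean was 36.5-fold lower in DKO, 0.659 ± 0.487 CPM against 24.1 ± 16.4 CPM in WT, with a log2FC of -5.19 (SE 0.85), or -5.79 without DKO 4.

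Krtdap and Sbsn lie close together on chromosome 7 and encode secreted products of suprabasal keratinocytes. Sbsn, suprabasin, is a transglutaminase substrate. Sbsn (ENSMUSG00000046056, 30751471 to 30756134, plus strand) had 7.98, 6.37 and 7.44 CPM in DKO 1, 3 and 4, against 12.6, 6.59 and 15.2 CPM in WT 1, 2 and 3. WT 2 fell inside the DKO range, so the groups overlapped, and the log2FC was -0.66 (SE 0.29), or -0.94 without WT 2. Krtdap, keratinocyte differentiation-associated protein (ENSMUSG00000074199, 30787896 to 30791097, plus strand), had 3, 4 and 5 counts in DKO 1, 3 and 4, against 1, 21 and 31 counts in WT 1, 2 and 3. It failed the filter on low counts and was not tested; with no filter its log2FC was -1.91. WT 1 was below every DKO library and the other WT libraries were above them. The 12 pooled DKO counts came to 26.1% of the pooled WT level, with an exact 95% interval of 12.7% to 49.5% for counting error only, which leaves out the spread between WT libraries.

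Sfn was the most abundant member and the steadiest. It encodes 14-3-3 sigma, a phosphoprotein-binding adaptor of stratified epithelia that is linked to exit from the cell cycle. Sfn (ENSMUSG00000047281, chromosome 4, 133600556 to 133602168, minus strand) had 489, 447 and 511 CPM in DKO 1, 3 and 4, against 468, 446 and 444 CPM in WT 1, 2 and 3. The groups overlapped, and the log2FC was 0.09 (SE 0.09). Of the 6 other 14-3-3 genes tested, edgeR called 0, as did DESeq2 and limma on FPKM, and 0 reached an unadjusted p below 0.05, with a median log2FC of -0.00. The most abundant, Ywhaz, had a log2FC of -0.12 (SE 0.10, adjusted p = 0.562), and Ywhae had one of 0.05 (SE 0.08, adjusted p = 0.824) that turned negative under total-count scaling and on the FPKM scale.

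Dsg1a encodes desmoglein 1 alpha, a desmosomal cadherin of the upper layers of squamous epithelium. Dsg1a (ENSMUSG00000069441, chromosome 18, plus strand) had 42.8, 34.5 and 24.7 CPM in DKO 1, 3 and 4, against 54.0, 65.2 and 60.1 CPM in WT 1, 2 and 3. Every DKO library lay below every WT library. Unlike in Tgm3, Calm4, Nccrp1 and Dynap, WT 2 was the highest WT library. The means were 34 ± 9.05 CPM in DKO and 59.8 ± 5.62 CPM in WT, with a log2FC of -0.81 (SE 0.18). Its transcript matches that of Dsg1b at 98.3% over 1795 of 5686 bases and that of Dsg1c at 94.5% over 1752 bases, so reads could be split between the copies and the level of each is uncertain. Dsg1b itself, named here for this overlap, averaged 13.9 ± 1.84 CPM in DKO and 24.6 ± 5.83 CPM in WT, with a log2FC of -0.83 (SE 0.19, adjusted p = 0.0932).

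**Figure D2:**
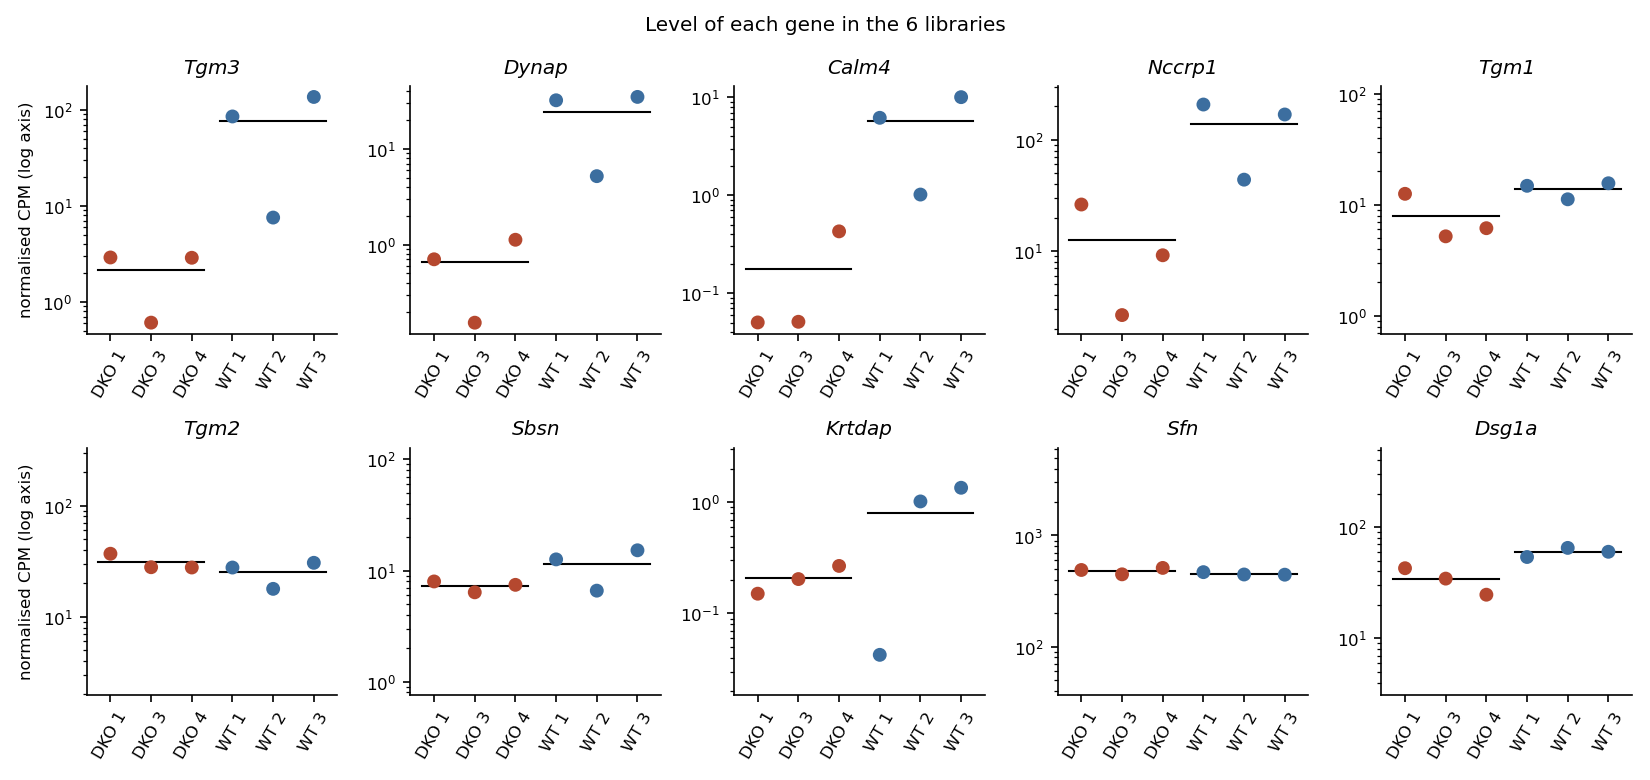
TMM-scaled CPM of the 10 members on log axes, 1 panel per gene, with 1 point per library (DKO left, WT right) and a black line at each group's mean. In Tgm3, Calm4, Nccrp1 and Dynap the DKO points lie below the WT points and WT 2 is the lowest WT point, in Dsg1a WT 2 is the highest, and Tgm1, Tgm2, Krtdap, Sbsn and Sfn overlap.

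Across the list, 5 of the 10 members did not overlap, all 5 lower in DKO, and 4 of those were at least 10-fold lower in mean. Among all 14721 tested genes, 11.8% had every DKO library below every WT library and 11.4% had every one above. A log2FC at or below -1 was seen in 4 of the 9 tested members and in 2.21% of all tested genes. At an adjusted p below 0.05, edgeR called 1 of the 9 tested members, Dynap, against 0.306% of all tested genes called lower and 1.04% called in either direction. The count of called members was 5 without WT 2 (Tgm3, Calm4, Nccrp1, Dynap and Sbsn) and 0 without any other 1 library. Without WT 2, 335 of all 15046 tested genes were called, 211 of them lower, and 21 to 102 genes were called without any other 1 library. Since this contrast chose the members, nothing is read from these counts and shares. The median log2FC was -0.81 over the 9 tested members and -0.01 over all tested genes.

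The order of mean levels per transcript length also differed between the genotypes. By mean FPKM in DKO, Sfn (306 ± 27.9) led, followed by Tgm2 (11.6 ± 2.68), Sbsn (11 ± 2.51), Nccrp1 (8.64 ± 8.42), Dsg1a (6.26 ± 1.80) and Tgm1 (2.76 ± 1.46), with Krtdap (1.15 ± 0.543), Dynap (0.593 ± 0.451), Tgm3 (0.494 ± 0.311) and Calm4 (0.219 ± 0.272) last. Only Sfn and Tgm2, and Dsg1a and Tgm1, were neighbours whose ranges of 1 SD did not meet. In WT the order was Sfn (287 ± 10.4), Nccrp1 (94.4 ± 58.2), Dynap (20.3 ± 14), Tgm3 (17.5 ± 14.9), Sbsn (14.3 ± 4.86), Dsg1a (10.9 ± 1.04), Tgm2 (9.32 ± 2.36), Calm4 (7.20 ± 5.71), Tgm1 (4.86 ± 0.884) and Krtdap (3.32 ± 2.76), and the neighbours from Dynap down met within 1 SD. Dynap and Tgm3 came directly after Nccrp1 in the WT means, but were among the last 3 in DKO. WT 2 did not share the order of the WT means. In WT 2, Tgm3 (1.70 FPKM) and Calm4 (1.25) lay below Tgm1 (3.85) and Krtdap (3.84), as in DKO. Dynap (4.24) lay below Dsg1a (11.9), Sbsn (9.01) and Tgm2 (6.66) there.

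**Figure D3:**
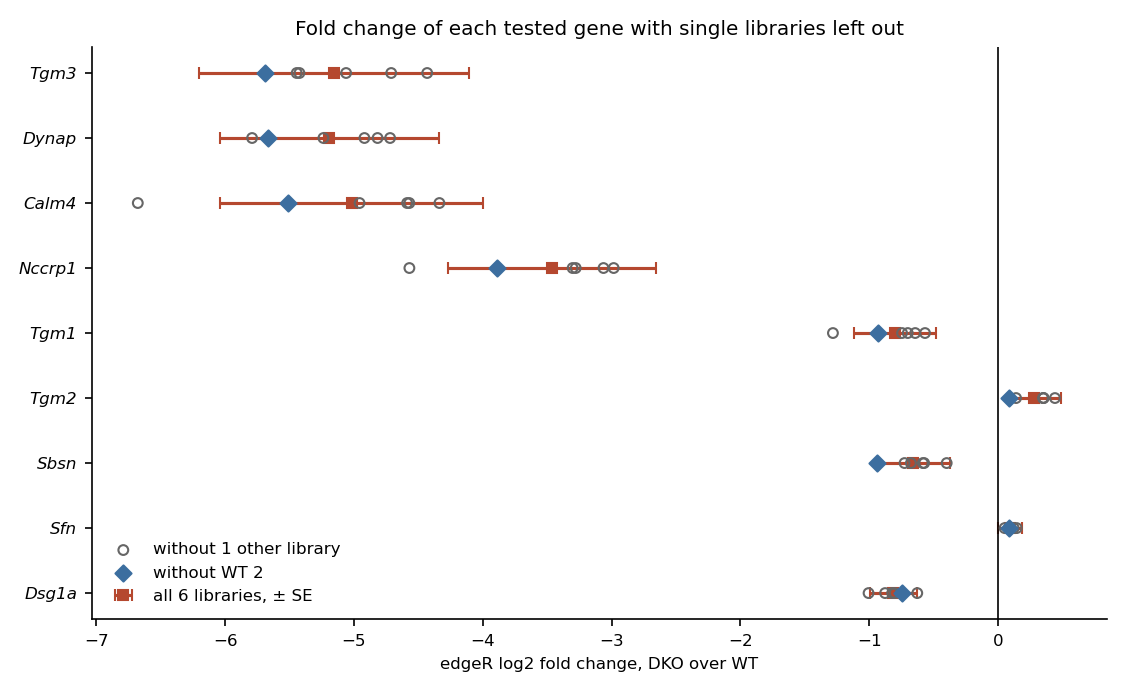
Fitted log2 fold change (DKO over WT) of the 9 tested members, with red squares and bars for the estimate and its SE, a blue diamond for the value without WT 2 and open circles for the values without 1 other library. Tgm3, Dynap, Calm4 and Nccrp1 stay at or below -2.98 in each omission, while Tgm2 and Sfn stay above 0.

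The members also differed in their spread between libraries of 1 genotype. The SD of log2 CPM among WT libraries was 2.23 for Tgm3, 1.68 for Calm4, 1.54 for Dynap and 1.22 for Nccrp1, against a median of 0.16 over all tested genes, and 0.04 for Sfn and 0.14 for Dsg1a. Tgm3 stood at the 99.8th percentile of that spread. The same 4 genes also varied within DKO, where the SD was 1.63 for Nccrp1, 1.20 for Tgm3, 1.19 for Dynap and 1.06 for Calm4, against a median of 0.14. DKO 3 had the lowest DKO value in 6 of the 10 members, and WT 2 the lowest WT value in 7. The summed level of Tgm3, Calm4, Nccrp1 and Dynap was 29.8, 3.47 and 13.6 CPM in DKO 1, 3 and 4, against 331.2, 57.6 and 349.5 CPM in WT 1, 2 and 3.

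Because the members form a list of oral or cornifying genes, 14 markers of oral keratinocytes were read beside them, and 13 were matched. All 13 also belong to the keratin or envelope lists of the cornification pathway below, so those readings are not separate from this one. Their summed level was 29.4 to 33.2 CPM in DKO and 48.9 to 97.7 CPM in WT. Of the 7 tested, edgeR called 0 (5 at an unadjusted p below 0.05), DESeq2 3 and limma on FPKM 0. A negative log2FC was seen in 6 of the 7, and the median was -1.52. Over all genes, edgeR called 153 and DESeq2 866 of 14721 tested, and limma on FPKM called 77 of 13359. The share of all tested genes at an unadjusted p below 0.05 was not counted, so nothing is read from such counts in this or any other list. Krt2 and Ivl were near 0 in all libraries, and 5 of the 13 averaged below 1 CPM. The part of this RNA in the results above was not tested.

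The oral markers differed among themselves in which WT libraries were high, and some differed in this from the 10-fold lower genes. Krt4, an oral mucosal keratin, had 0.802, 0.662 and 0.749 CPM in DKO 1, 3 and 4, against 0.764, 5.28 and 17.2 CPM in WT 1, 2 and 3. Krt13, its pairing partner, had 0.401, 0.560 and 1.5 CPM in DKO, against 0.339, 5.86 and 10.4 CPM in WT. WT 1 was thus at the DKO level for these keratins, and WT 2 and WT 3 were above it. Sprr3, an envelope precursor, had 0.451, 0.357 and 0.321 CPM in DKO, against 0.382, 3.00 and 4.93 CPM in WT. As a share of WT 3, WT 1 had 4.44% for Krt4, 3.26% for Krt13 and 7.75% for Sprr3, against 62.7% for Tgm3, 61.5% for Calm4, 92.2% for Dynap and 122.9% for Nccrp1. WT 2 had 30.7%, 56.3% and 61.0% of WT 3 for Krt4, Krt13 and Sprr3, against 5.58% for Tgm3, 10.1% for Calm4, 14.9% for Dynap and 25.9% for Nccrp1. Krtdap, with a single count in WT 1, stood at 3.14% of WT 3 in WT 1 and 75.3% in WT 2. Other oral markers did not have the low WT 1. Krt6b, a stress keratin, had 95.8% of WT 3 in WT 1 and 25.5% in WT 2, close to the shares of Nccrp1. Krt16 had 70.5% in WT 1 and 56.9% in WT 2, Krt76 had 72.2% and 59.6% in those libraries, and Krt10 had 169.8% and 108.9%. The sum of the 13 markers was 57.9 CPM in WT 1, 48.9 CPM in WT 2 and 97.7 CPM in WT 3. Krt4, Krt13, Sprr3 and Krtdap were picked for their pattern after their values were seen.

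**Figure D4:**
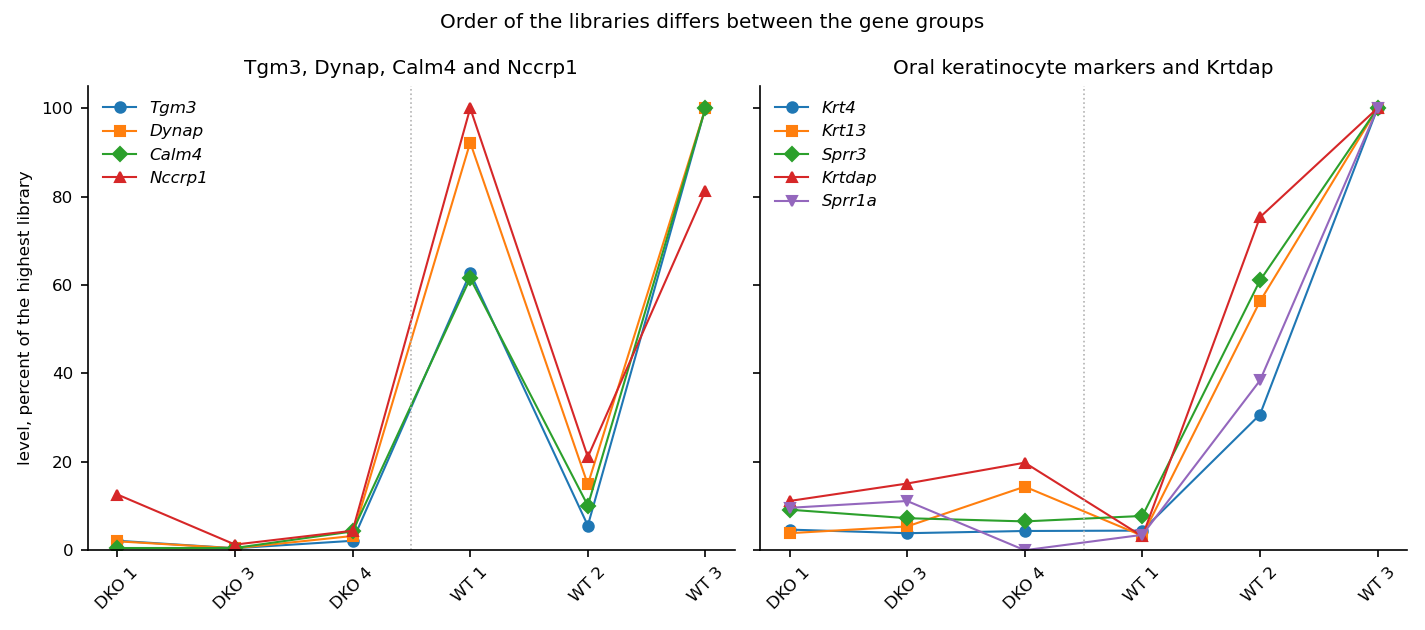
CPM of each gene as a percentage of its highest library, with DKO libraries left of WT libraries and lines that only join the points of 1 gene. Tgm3, Dynap, Calm4 and Nccrp1 (left panel) are high in WT 1 and WT 3 and low in WT 2, while Krt4, Krt13, Sprr3, Sprr1a and Krtdap (right panel, picked for their pattern) are high in WT 2 or WT 3 and near the DKO level in WT 1.

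Markers of other cells also moved with the libraries. The 9 dental and basal epithelial markers summed to 8708 to 8872 CPM in DKO and 11170 to 12875 CPM in WT, and all 9 had a negative log2FC. Ameloblast markers summed to 138473 to 206589 CPM in DKO and 96911 to 163267 CPM in WT, and stratum intermedium and papillary markers to 7694 to 9170 CPM in DKO and 6877 to 9373 CPM in WT. Mesenchymal markers summed to 10927 to 13824 CPM in DKO and 7056 to 11733 CPM in WT, leukocyte markers to 142 to 248 CPM in DKO and 99.8 to 134 CPM in WT, and neutrophil markers to 9.89 to 20.1 CPM in DKO and 2.46 to 76.0 CPM in WT. Endothelial markers summed to 248 to 261 CPM in DKO and 169 to 224 CPM in WT, erythroid markers to 134 to 391 CPM in DKO and 140.3 to 432 CPM in WT, muscle markers to 54.0 to 109 CPM in DKO and 59.9 to 201 CPM in WT, and nerve markers to 27.7 to 37.2 CPM in DKO and 23.6 to 39.6 CPM in WT. A positive log2FC was seen in all tested mesenchymal (10), leukocyte (7) and endothelial (6) genes. It was also seen in 7 of 9 ameloblast and 3 of 4 nerve genes. A negative one was seen in all tested neutrophil (6) and erythroid (5) genes, 5 of 6 muscle and 6 of 9 stratum intermedium genes. Outside the dental and basal list, edgeR called 0 genes of these lists. At an unadjusted p below 0.05 with edgeR stood 5 dental and basal, 5 stratum intermedium, 4 ameloblast, 4 leukocyte and 2 endothelial genes. DESeq2, counted separately over the same lists, called 4, 2, 2, 2 and 1 genes. Both counts were 0 in the mesenchymal, neutrophil, erythroid, muscle and nerve lists. The markers' part in the members' values was not tested.

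The rest of the cornification pathway was read from 9 lists of 132 matched genes that exclude the members, of which 93 were tested. The 13 matched oral markers are among the 132. Of these, 2 rose (Lypd3 and Grhl1) and 2 fell (Dsp and Krt6a) in DKO at an adjusted p below 0.05, against 0.734% of all tested genes called higher and 0.306% called lower. The log2FC was negative in 64 of the 93, or 68.8%, against 51.3% of all tested genes, and the median was -0.22 against -0.01. All DKO libraries lay below all WT libraries in 22 of the 93, against 11.8% of all tested genes, and above them in 6 of the 93, against 11.4%. The count of calls was 10 without WT 2, where 335 of all 15046 tested genes were called. It was 0 without DKO 3, DKO 4 or WT 3, where 21 to 30 of all tested genes were called. No set test was made, and the lists were drawn up with earlier results of these libraries known.

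Among 21 tested envelope and keratohyalin genes, 1 was called and 18 had a negative log2FC, with a median of -0.29, and 24 of the 41 matched genes averaged below 1 CPM. The called gene rose in DKO. Lypd3, a GPI-anchored surface protein of suprabasal epithelium, had 77.4, 101 and 101 CPM in DKO 1, 3 and 4, against 37.7, 25.4 and 37.0 CPM in WT 1, 2 and 3. The groups were well apart, with a log2FC of 1.48 (SE 0.17, adjusted p = 0.0135), although the call ended without DKO 3, DKO 4 or WT 3 (adjusted p of 0.0522 to 0.0783) and with limma on unfiltered FPKM (0.134). Anxa1, a calcium-dependent phospholipid-binding protein of the envelope, had a log2FC of -0.22 (SE 0.15, adjusted p = 0.509). Dmkn, dermokine, whose gene belongs to the same secreted group as Krtdap and Sbsn, had 204 CPM in DKO and 250 CPM in WT on average, with a log2FC of -0.29 (SE 0.16, adjusted p = 0.392).

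The other desmosomal genes had a negative log2FC in all 12 tested, with a median of -0.46, and 1 passed the test. Dsp, desmoplakin, which ties desmosomes to keratins, had 732, 766 and 766 CPM in DKO 1, 3 and 4, against 1525, 1229 and 1161 CPM in WT 1, 2 and 3. The DKO libraries lay close together below the WT libraries, with a log2FC of -0.79 (SE 0.13, adjusted p = 0.0432) and a call that was lost on leaving out any library other than WT 2 (adjusted p of 0.0641 to 0.184), with a term for Xist (0.103), with the replicate block (0.114) and with limma on unfiltered FPKM (0.163). Perp, a p53 target needed for desmosome assembly, had a log2FC of -0.14 (SE 0.10, adjusted p = 0.516).

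Of 10 tested suprabasal and stress keratins, 8 had a negative log2FC, with a median of -1.41, and edgeR called 1. Krt6a, a keratin of hair follicles, oral epithelium and wounded epidermis, had 109, 60.6 and 85.6 CPM in DKO 1, 3 and 4, against 418, 230.1 and 336 CPM in WT 1, 2 and 3. The groups did not overlap, WT 2 was again the lowest WT library, and the log2FC was -1.95 (SE 0.27, adjusted p = 0.0216). The call ended without DKO 3, DKO 4 or WT 3 (adjusted p of 0.077 to 0.114), with a term for Xist (adjusted p = 0.0563) and with limma on unfiltered FPKM (adjusted p = 0.183). Krt17, the most abundant stress keratin, had a log2FC of -0.40 (SE 0.33, adjusted p = 0.565), which turned positive with the replicate block.

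Of the regulators and lipid enzymes of the barrier, 1 gene passed the test. Among 24 tested regulators, with a median log2FC of -0.23 and 15 negative, edgeR called Grhl1, a grainyhead-like factor that controls desmosomal and barrier genes. Grhl1 had 7.52, 9.99 and 10.6 CPM in DKO 1, 3 and 4, against 3.44, 4.80 and 3.57 CPM in WT 1, 2 and 3, a log2FC of 1.25 (SE 0.20, adjusted p = 0.0403) whose call was lost on leaving out any library other than DKO 1 or WT 2 (adjusted p of 0.0943 to 0.152). It was also lost with a term for Xist (adjusted p = 0.101) and on the 3 FPKM scales (adjusted p of 0.0761 to 0.206). Every DKO library lay above every WT library. Trp63, the master regulator of stratified epithelium, had a log2FC of -0.06 (SE 0.16, adjusted p = 0.883). The sign of Trp63 turned with the replicate block and without DKO 1 or WT 2. Of the 10 tested lipid genes edgeR called 0 (2 at an unadjusted p below 0.05), DESeq2 called 2 and limma on FPKM 0, with a median log2FC of 0.02. Smpd1, acid sphingomyelinase, had a log2FC of -0.02 (SE 0.08, adjusted p = 0.923) whose sign turned without WT 2, with the replicate block and with a term for Xist.

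**Figure D5:**
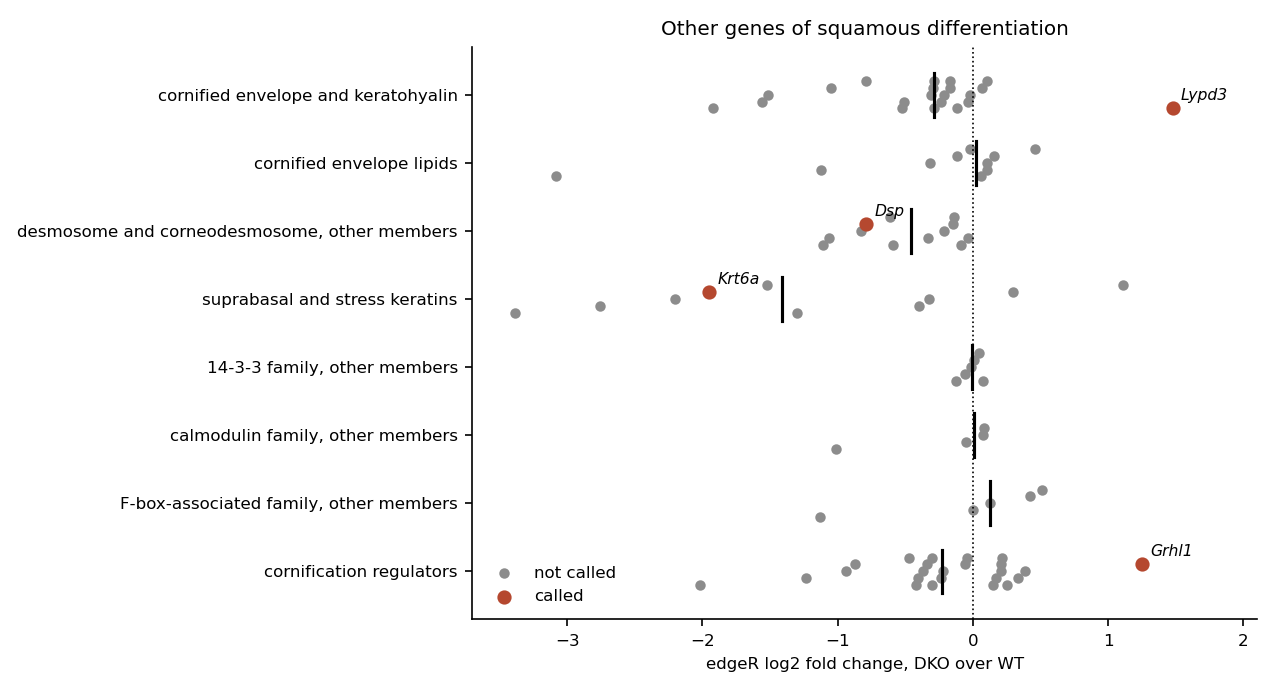
Fitted log2 fold change (DKO over WT) of each tested gene in 8 cornification lists, 1 grey point per gene, with a black bar at the list's median and the 4 called genes in red with their names. Lypd3 and Grhl1 lie above 0, Dsp and Krt6a below it, and the keratin list has the lowest median, -1.41.

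Genes with the pattern most like the members were ranked by the root mean square distance of centred log2 CPM over the 6 libraries from the mean profile of the 9 tested members, among 12790 protein-coding genes. The 6 nearest were Tmprss11b at 0.12 log2 units, Mboat1 at 0.15, Krt6b at 0.27, Pam at 0.30, Rgma at 0.34 and Krt6a at 0.34. Tmprss11b, an airway-trypsin-like serine protease of squamous epithelia, had 0.702, 0.357 and 0.588 CPM in DKO 1, 3 and 4, against 3.27, 1.41 and 4.36 CPM in WT 1, 2 and 3. Pam, the enzyme that amidates peptide hormones, was far more abundant, with 162, 116 and 145 CPM in DKO, against 636, 223 and 645 CPM in WT. Each of the 6 was lowest in DKO 3 among DKO libraries and in WT 2 among WT libraries, and for Krt6b the groups overlapped. Of the 9 tested members, Tgm1 was nearest to that mean profile at 0.77 log2 units and Tgm3 farthest at 1.5. The gene nearest to Tgm3 alone, a ranking added after the data were seen, was Slc40a1, the iron exporter ferroportin, at 0.42 log2 units, with 27.2, 10.8 and 35.7 CPM in DKO, against 1813, 97.5 and 2631 CPM in WT. The ranking uses the same libraries that chose the members and is a description only.

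Where reads of neighbouring genes could mix, the counts are less certain, since the TruSeq RNA v2 kit named in the labels does not mark strand. In GENCODE vM21, Tgm1 shares 182 of its 3162 exonic bases with Gm49067 on the other strand, Tgm2 shares 633 of 4608 with Gm20412 and 370 with Rprd1b on the other strand, and Sbsn shares 279 of 3625 with Tmem147os on its own strand. Tgm3, Calm4 and Nccrp1 share 0 exonic bases with another gene. Sfn has near copies, Gm7850 at 97.5% identity over 712 of 1613 bases and Gm5279 at 94.6% over 727 bases.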

How the data were processed

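Total RNA of enamel organ cells was sequenced in 3 DKO and 3 WT libraries, from 500 ng of input with 12 PCR cycles and paired 150 nt reads, per the labels' protocols. The authors deposited 1 table of raw counts for each library, keyed by Ensembl ID. Per the file headers, the FPKM values come from Cufflinks. The submitters' processing notes list the build GRCm38 and the tools Trimmomatic 0.32, HTSeq and Cufflinks 2.2, with no role for each. Which aligner, annotation release or counting mode was used is not given in the sources used here. Of 46603 genes, 0 rows named no gene, 46406 had a symbol, and GENCODE vM21 gave 1-based GRCm38 positions for 46005.

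The comparison of DKO with WT used edgeR 4.0.16 (glmQLFit and glmQLFTest, R 4.3.3) on 14721 genes that passed filterByExpr, with TMM scaling and no covariate. A gene was called at an adjusted p below 0.05 (Benjamini-Hochberg). An SE is the log2FC over the square root of F. FPKM was tested in an alternative with limma 3.58.1, and counts with DESeq2 1.42.0. Near copies were found with BLAST 2.17.0, exact intervals with scipy 1.17.1. Scripts were tested on simulated data. Libraries of a group had Pearson correlations of log2 CPM of 0.985 to 0.989 and differed by more than sampling noise (chi-square over its degrees of freedom 13.4 or more), so none was a duplicate. Xist exceeded 100 CPM in DKO 1, WT 1 and WT 2, and a term for it was an alternative.

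The members and gene lists were chosen with earlier results of these data known. Genes named are the 10 members, Stim1 and Stim2, called genes of the lists (at most 6 each), the 2 most abundant tested genes of each pathway list, the most abundant of each family and the 6 genes at 1 CPM or more on average that are most like the members. Some genes that this rule selects are not reported here. Exceptions are named as chosen after their values were seen. Oral marker Flg matched 8 genes and was not used. Alternatives were other scalings (DESeq2 size factors, total counts), no filter or a stricter one (mean count 50 or more), a block for the replicate number, each library left out, and FPKM with pseudocounts of 1 and 0.1 (at least 1 FPKM in 3 libraries) or no filter.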

Additional observations from a re-analysis of the deposited data

How the results depend on the processing

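The 9 fitted members kept the sign of their log2 fold change in all 144 comparisons over 16 alternatives, and the median over these 9 ran from -1.28 without DKO 1 to -0.68 without DKO 4. Where a setting also fitted Krtdap, the median over all 10 reached -1.68, without WT 1. The log2FC of Calm4 ran from -7.16 with the replicate block to -2.42 on log2(FPKM + 1), where Tgm3 had -3.05 and Dynap -3.41. Counts of calls depended on the setting. The numbers of genes, members and other cornification genes called were 153, 1 and 4 in the edgeR test. They were 554, 5 and 17 with no low-count filter, 866, 5 and 19 with DESeq2, 71, 0 and 1 with a term for Xist, 77, 0 and 3 with limma on FPKM with a pseudocount of 1 or 0.1, and 11, 0 and 0 on FPKM with no filter. With a mean of at least 50 counts, 0 members were called. Leaving out 1 library gave 21 to 335 genes, 0 to 5 members and 0 to 10 other cornification genes, with the highest counts in each case without WT 2 and the lowest gene count without DKO 4. The split of calls was 124 higher and 211 lower without WT 2, against 108 higher and 45 lower with all libraries. Some settings hold fewer libraries or test other genes, and the cause of the differences in counts was not tested.

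Only replicates 1 and 3 occur in both groups. Deviations from the group means correlated at 0.19 for number 1 and -0.01 for number 3, so the numbers were not shown to pair samples. With the replicate block, 328 genes (132 higher, 196 lower), 4 members (Tgm3, Calm4, Nccrp1 and Dynap) and 12 other cornification genes were called. In that fit WT 2 and DKO 4 each stood alone in a block. Its fold changes therefore rest on replicates 1 and 3 of each group, without the low WT 2.

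Among the 27 genes selected by rule that are not members, 15 of 427 comparisons turned the sign. Fbxo2 was -0.040 with total counts, and it ranged from -0.20 to 0.32 when 1 library was left out, negative without DKO 1, WT 2 or WT 3. Ywhae was -0.0035 with total counts, -0.0324 on the FPKM scale with a pseudocount of 1 (filter or none) and -0.0325 with 0.1. Smpd1 was 0.027 with the block and 0.0070 with the term for Xist, and it ranged from -0.063 to 0.043 when 1 library was left out, positive without WT 2. Krt17 was 0.12 with the block. Trp63 was 0.079 with the block, and it ranged from -0.16 to 0.10 when 1 library was left out, positive without DKO 1 or WT 2. Krtdap and Calm4, with a few counts in DKO, are limited by depth. Leaving out WT 2 moved the SE of Tgm3 to 0.43 from 1.05 and that of Dynap to 0.41 from 0.85, but that of Dsg1a to 0.20 from 0.18.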
